A study of Mus musculus with 10 samples.

Results

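The *Slc1* genes encode the sodium-dependent transporters that carry glutamate and neutral amino acids across the plasma membrane. The members described here are *Slc1a1*, *Slc1a2*, *Slc1a3*, *Slc1a4*, *Slc1a5* and *Slc1a6*, taken by gene symbol from the annotation, and they are 6 of the 53447 genes listed in each library. RNA-seq was performed on the cerebella of 5 *Dscamdel17/del17* mice, labelled DscamKO, and 5 WT mice, labelled Control, at P21, with 1 library per mouse. The labels give the strain of all 10 mice as BALB/c and name no treatment, and per the study's methods the del17 line was crossed to BALB/cCrSlc mice and littermates served as controls. The del17 allele is a spontaneous loss-of-function deletion in *Dscam* that every cell of the mutants carries, so neurons and glia, inside and outside the cerebellum, are all mutant. Mice of both sexes were used in the study, and the labels give no sex. *Xist*, the RNA of the inactive X chromosome, was measured at 65.6 TPM in *Dscamdel17/del17* replicate 5 and at 88.3 TPM in WT replicate 1, and at or near 0 in the other 8 libraries.

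The family falls into glutamate transporters and neutral amino acid exchangers. The glutamate transporters draw their substrate into the cell against its gradient, driven by sodium entering with it and potassium leaving, and so end its action at the synapse. In the cerebellum, GLAST (*Slc1a3*) is the main transporter of Bergmann glia, the astrocytes whose processes wrap the synapses on Purkinje cells, and GLT-1 (*Slc1a2*) is the astrocytic transporter that dominates in the forebrain. EAAT4 (*Slc1a6*) is a Purkinje cell transporter, and EAAC1 (*Slc1a1*) is a neuronal transporter that also takes up cysteine. ASCT1 (*Slc1a4*) and ASCT2 (*Slc1a5*) exchange small neutral amino acids, serine among them and, for ASCT2, glutamine. The study asked whether the amount of GLAST transcript differs between the genotypes, and the family sets that value beside its relatives.

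The division between transporters and exchangers can be read in the coding sequence around a single codon. In the glutamate transporters this codon encodes the arginine that holds the side chain carboxylate of glutamate, and the exchangers have a small neutral residue there. The 6 sequences are shown because the codon marks which members are glutamate transporters, and because they show how far the transcripts differ within a matching stretch. Each is given 5′ to 3′ as 30 bases of the GENCODE M21 transcript, with the codon in capitals, and the first 2 bases lie in one exon and the rest in the next.
Slc1a3: ctggaccgcctcCGAaccaccaccaacgta
Slc1a2: ctggatagaatgAGAacttcagtcaatgtg
Slc1a6: cttgaccgacttCGTacaatgaccaatgta
Slc1a1: ctggaccggttcAGGaccatggtgaacgtc
Slc1a4: gtggaccggaccACCactgtggtgaatgtg
Slc1a5: gtggacaggtccTGTactgtcctcaacgtg

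*Slc1a3*, *Slc1a2*, *Slc1a6* and *Slc1a1* have an arginine codon, at codons 479, 477, 501 and 446 of their open reading frames. *Slc1a4* has a threonine codon at codon 459 and *Slc1a5* a cysteine codon at codon 481. Compared with *Slc1a3*, 22 of the 30 bases were the same in *Slc1a6*, 20 in *Slc1a1*, 17 in *Slc1a2*, 17 in *Slc1a5* and 14 in *Slc1a4*. Over whole transcripts, the longest run of identical bases in any of the 15 pairs of members ranged from 11 to 26, with 26 for *Slc1a3* and *Slc1a6*. The libraries were sequenced for 151 cycles, far longer than these runs.

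The windows lie on GRCm38 at chr15:8636312-8639057 on the minus strand for *Slc1a3* (exons 9 and 10), chr2:102767066-102777454 on the plus strand for *Slc1a2* (exons 9 and 10) and chr10:78812935-78814447 on the plus strand for *Slc1a6* (exons 9 and 10). Those of *Slc1a1*, *Slc1a4* and *Slc1a5* lie at chr19:28909564-28911681 on the plus strand (exons 11 and 12), chr11:20304473-20306467 on the minus strand (exons 7 and 8) and chr7:16796157-16797529 on the plus strand (exons 8 and 9). Each of these spans includes the intron between the 2 exons. The 6 genes therefore sit on 6 chromosomes. *Slc1a3* (ENSMUSG00000005360) occupies chr15:8634124-8710764, *Slc1a2* (ENSMUSG00000005089) chr2:102658659-102790784, *Slc1a6* (ENSMUSG00000005357) chr10:78780496-78814765, *Slc1a1* (ENSMUSG00000024935) chr19:28835049-28913960, *Slc1a4* (ENSMUSG00000020142) chr11:20302180-20332713 and *Slc1a5* (ENSMUSG00000001918) chr7:16781340-16798274.

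Other annotated genes overlap 3 of the members, and the strand setting of the quantification is not given in the sources used here. *4430402I18Rik*, a protein-coding gene at 1.25 TPM on average, and the pseudogene *Gm5822*, at 0.0779 TPM, lie opposite *Slc1a1*, itself at 11.1 TPM. *Gm37310*, at 1.92 TPM, lies on the same strand within *Slc1a3*, which averaged 428 TPM, and the antisense gene *Gm13872* within *Slc1a2* was listed at 0. These neighbours were low beside the members they overlap.

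The values are in TPM, a unit divided by transcript length and scaled within each library, so levels of different genes can be compared. The TPM of the listed genes summed to 775148 to 805869 in the *Dscamdel17/del17* libraries and to 684771 to 838532 in the WT libraries, and TPM leave the number of reads unknown. Between 17130 and 17539 genes reached 0.5 TPM in mutant libraries, against 15623 to 17763 in WT libraries. The 13 mitochondrially encoded mRNAs summed to 34717 to 44973 TPM in the mutants and to 15206 to 44670 TPM in WT, and the lowest sums were those of WT replicate 5 (15206 TPM) and WT replicate 3 (23124 TPM). WT replicate 5 also had the fewest genes at 0.5 TPM. *Dscam* was measured at 5.11, 5.42, 4.53, 3.73 and 3.05 TPM in the 5 mutants, against 8.04, 8.43, 6.79, 9.05 and 6.29 TPM in WT. The genotypes did not overlap for *Dscam* (log2 fold change -0.82, 95% interval -1.33 to -0.32, exact two-sided permutation p = 0.0079, the smallest that 5 against 5 allows, limma adjusted p = 0.779). TPM cover the whole transcript, so this level does not test the deletion itself. The summed markers of Purkinje cells were at least 7271 TPM in each library, those of granule cells 3198 TPM and those of Bergmann glia and astrocytes 2093 TPM, although the Purkinje cell marker *Foxp2* averaged 0.0692 TPM in the mutants and 0.414 TPM in WT. Of the brainstem markers, 7 of 10 stayed under 0.5 TPM in each library, of which 1 was at 0.

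*Slc1a3* had the highest level of the family in all 10 libraries. It was measured at 473, 451, 446, 430 and 422 TPM in *Dscamdel17/del17* replicates 1 to 5, against 530, 508, 354, 400.5 and 272 TPM in WT replicates 1 to 5. The mutant values lay within a narrow band, and no WT value fell inside it, since WT replicates 1 and 2 were above the whole mutant range and WT replicates 3, 4 and 5 below it. The means were 444 ± 19.9 TPM in *Dscamdel17/del17* and 413 ± 108 TPM in WT cerebella (SD, n = 5 mice each). The level did not differ beyond the spread between mice, with a log2 fold change of 0.15 (SE 0.16, 95% interval -0.20 to 0.50, limma adjusted p = 0.834) and an exact two-sided permutation p of 0.563. With 1 library per mouse, spread between mice and spread between libraries cannot be told apart. The interval runs from 0.868-fold to 1.41-fold, and a change within these bounds cannot be seen with these libraries. It takes 1 spread for both genotypes, whereas the SD of log2 levels was 0.064 in the mutants and 0.395 in WT. The bounds are therefore approximate. In whole tissue, fewer cells of a type and less RNA per cell cannot be told apart.

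Single WT libraries moved the estimate for *Slc1a3* in both directions. Without WT replicate 1 the log2 fold change was 0.25, beside a median over all genes of 0.10. Without WT replicate 2 it was 0.23, beside a median of 0.067. Without WT replicate 5, the library lowest in mitochondrial mRNA, it was 0.0068, beside a median of -0.037. With WT replicates 3 and 5 left out, the lowest WT values of *Slc1a3*, it was -0.10, beside a median of -0.094. With the summed mitochondrial mRNA as a covariate it was -0.13, beside a median of -0.10, and the part of RNA quality in these values was not tested.

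**Figure D1:**
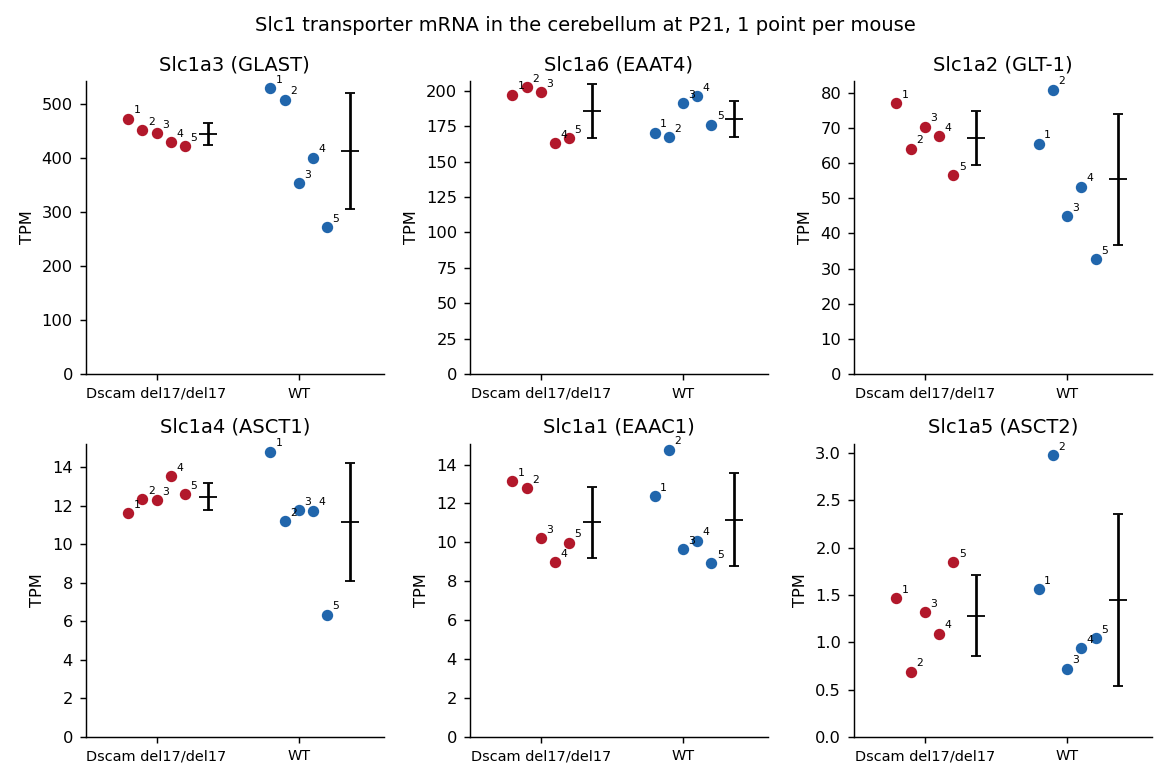
TPM of each *Slc1* member, 1 panel per gene with its own axis from 0, 1 point per mouse numbered by replicate, *Dscamdel17/del17* in red on the left and WT in blue on the right, with bars for the mean and SD (n = 5 mice each). The 5 mutant points of *Slc1a3* lie between 422 and 473 TPM, while the WT points lie between 272 and 530 TPM with none inside the mutant range.

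Arrangements like that of *Slc1a3* were uncommon but not confined to it. Of the 17168 genes tested, 593 (3.45%) had every WT value outside the mutant range with some above and some below it, and 193 (1.12%) had WT replicates 1 and 2 above and WT replicates 3 to 5 below it. *Slc1a3* was the only member of the family among them. For *Slc1a2*, 1 WT value lay above and 3 below the mutant range, for *Slc1a4* 1 lay above and 2 below, and all 5 WT values of *Slc1a6* lay inside it. This arrangement was looked at after the values of *Slc1a3* had been seen and carries no test.

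*Slc1a2*, the other glial glutamate transporter, was measured at 77.0, 64.0, 70.3, 67.6 and 56.5 TPM in *Dscamdel17/del17* replicates 1 to 5, against 65.4, 80.9, 44.9, 53.2 and 32.6 TPM in WT replicates 1 to 5. The highest and the 3 lowest values were all WT, and the mutant values lay between them. The means were 67.1 ± 7.57 TPM in *Dscamdel17/del17* and 55.4 ± 18.6 TPM in WT (SD, n = 5 mice each). This was the largest positive estimate in the family (log2 fold change 0.34, SE 0.21, 95% interval -0.13 to 0.80), and it did not pass the test (limma unadjusted p = 0.138, adjusted p = 0.779, exact two-sided permutation p = 0.238).

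Single WT libraries moved the estimate for *Slc1a2* in both directions. Without WT replicate 2, the highest, the log2 fold change was 0.49 with an unadjusted limma p of 0.0242, and without WT replicate 5, the lowest, it was 0.16. Leaving out WT replicates 3 and 5, the lowest WT values of *Slc1a2*, gave 0.025, and the estimate was -0.011 with mitochondrial mRNA as a covariate.

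*Slc1a6*, the Purkinje cell transporter, was the second most abundant member in every library. It was measured at 197, 202, 199, 163 and 167 TPM in *Dscamdel17/del17* replicates 1 to 5, against 170.5, 167, 191, 196 and 176 TPM in WT replicates 1 to 5. The WT libraries that were low in *Slc1a3* were not low in *Slc1a6*, and the lowest value belonged to a mutant. The means were 186 ± 19.1 TPM in *Dscamdel17/del17* and 180 ± 12.8 TPM in WT (SD, n = 5 mice each), with a log2 fold change of 0.04 (SE 0.09, 95% interval -0.17 to 0.24, limma adjusted p = 0.925, exact two-sided permutation p = 0.635). The narrowest interval in the family was that of *Slc1a6*, running from 0.891-fold to 1.18-fold.

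*Slc1a1*, the neuronal transporter of glutamate and cysteine, stood below these. It was measured at 13.2, 12.8, 10.2, 8.99 and 9.98 TPM in *Dscamdel17/del17* replicates 1 to 5, against 12.4, 14.8, 9.63, 10.1 and 8.93 TPM in WT replicates 1 to 5. The values interleaved, with 2 higher and 3 lower mice in each genotype. The means were 11.0 ± 1.84 TPM in *Dscamdel17/del17* and 11.2 ± 2.40 TPM in WT (SD, n = 5 mice each). The log2 fold change was -0.0080 (95% interval -0.43 to 0.42, limma adjusted p = 0.993, exact two-sided permutation p = 0.937), and its sign depended on which single library was left out (-0.081 to 0.098).

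Among the exchangers, *Slc1a4* was measured at 11.6, 12.3, 12.3, 13.5 and 12.6 TPM in *Dscamdel17/del17* replicates 1 to 5, against 14.8, 11.2, 11.8, 11.7 and 6.33 TPM in WT replicates 1 to 5. As for *Slc1a3*, the mutants lay close together and the extremes on both sides were WT, with WT replicate 5 lowest. The means were 12.5 ± 0.688 TPM in *Dscamdel17/del17* and 11.2 ± 3.05 TPM in WT (SD, n = 5 mice each), and the difference did not pass the test (log2 fold change 0.21, 95% interval -0.26 to 0.68, limma adjusted p = 0.826, exact two-sided permutation p = 0.476). Leaving out WT replicates 3 and 5 gave a log2 fold change of -0.0032, and it was -0.072 with mitochondrial mRNA as a covariate.

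*Slc1a5*, the glutamine exchanger, was the lowest member in every library and the most variable one. It was measured at 1.47, 0.687, 1.32, 1.09 and 1.85 TPM in *Dscamdel17/del17* replicates 1 to 5, against 1.56, 2.98, 0.722, 0.937 and 1.04 TPM in WT replicates 1 to 5. Both genotypes spanned the same low range apart from WT replicate 2. The means were 1.28 ± 0.433 TPM in *Dscamdel17/del17* and 1.45 ± 0.909 TPM in WT (SD, n = 5 mice each). The log2 fold change of -0.06 had the widest interval in the family (-1.05 to 0.94, limma adjusted p = 0.976, exact two-sided permutation p = 0.802), and the sign turned without WT replicate 2 (0.23), WT replicate 1 (0.0092) or mutant replicate 2 (0.13). *Slc1a7*, which encodes the retinal transporter EAAT5 and completes the family, was listed at 0 in all 10 libraries and is not among the members.

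All 6 members passed the filter on low values and reached 0.5 TPM in 10 of 10 libraries. By limma, 0 of 6 passed an adjusted p of 0.05, as did 0 of the 17168 genes tested (0.0%), and 0 of 6 had an unadjusted p under 0.05, against 953 of all genes (5.55%). The genotypes did not separate without overlap for any of the 6, which 209 genes (1.22%) did. The log2 fold change was above 0 for 4 of 6 members and for 56.0% of all genes. The median over all genes was 0.05, and the intervals of all 6 members contained it.

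**Figure D2:**
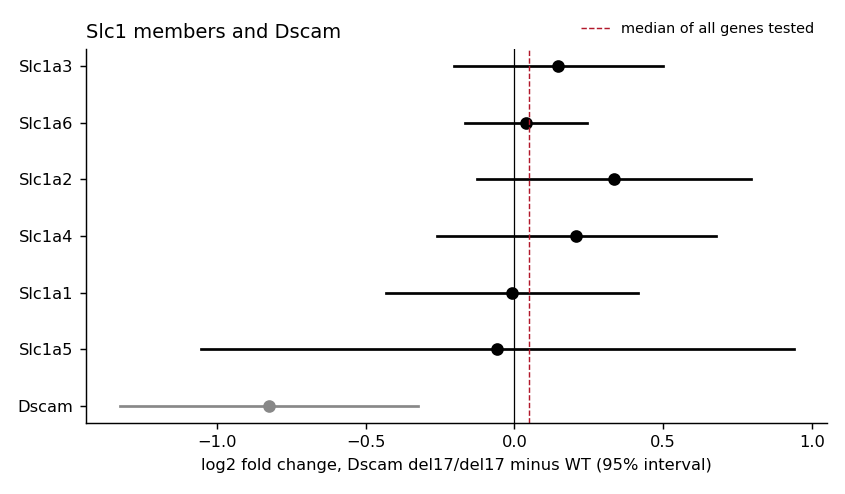
Log2 fold change, *Dscamdel17/del17* minus WT, for the 6 members in order of level and for *Dscam* in grey, with 95% intervals from limma (n = 5 mice each). The solid line marks 0 and the dashed line the median of all genes tested (0.05), and of the genes shown only *Dscam* has an interval that leaves out both.

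The order of the levels was nearly the same in every mouse. *Slc1a3* exceeded *Slc1a6* by 2.23-fold to 2.64-fold in the mutants and by 1.54-fold to 3.11-fold in WT, and *Slc1a6* exceeded *Slc1a2* by 2.41-fold to 3.16-fold in the mutants and by 2.07-fold to 5.40-fold in WT. Each of these held in 10 of 10 libraries, as did *Slc1a2* over *Slc1a4* and *Slc1a1* over *Slc1a5* (exact two-sided sign-flip permutation p = 0.00195 for each pair, the smallest for 10 libraries). *Slc1a4* and *Slc1a1* did not differ beyond their spread, with *Slc1a4* higher in 6 of 10 libraries (3 mutant and 3 WT) and ratios of 0.708 to 1.503 (exact two-sided sign-flip permutation p = 0.469). The order from the glial *Slc1a3* through the Purkinje cell *Slc1a6* to the glial *Slc1a2* thus held in both genotypes. Within its library, *Slc1a3* ranked between the 174th and 206th of all listed genes by TPM in the mutants and between the 151st and 368th in WT.

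The 6 members together summed to 773, 743, 739, 684 and 669 TPM in *Dscamdel17/del17* replicates 1 to 5, against 794, 785, 612, 673 and 497 TPM in WT replicates 1 to 5. The sum thus overlapped between the genotypes, and the 2 highest and the 2 lowest sums were all WT. *Slc1a3* made up 61.6 ± 1.24% of the sum in the mutants and 60.7 ± 4.93% in WT, *Slc1a6* 25.7 ± 1.41% in the mutants and 27.7 ± 6.21% in WT, and *Slc1a2* 9.28 ± 0.711% in the mutants and 8.07 ± 1.40% in WT (SD, n = 5 mice each). The other 3 members together made up 3.44 ± 0.152% in the mutants and 3.52 ± 0.174% in WT. Shares do not depend on the scaling of a library, and all of them overlapped between the genotypes.

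The shares of the 3 most abundant members varied less among the mutants than among WT mice. The share of *Slc1a3* was 60.3% to 63.0% in the mutants, against 66.7%, 64.7%, 57.8%, 59.5% and 54.7% in WT replicates 1 to 5. The share of *Slc1a6* ran the other way among the WT mice, at 21.5%, 21.3%, 31.3%, 29.2% and 35.4%, with 23.8% to 27.2% in the mutants. *Slc1a3* and *Slc1a6* make up most of the sum, so the share of one falls as that of the other rises. The course of the *Slc1a6* share is therefore not a separate observation from that of *Slc1a3*. The glial transporters *Slc1a3* and *Slc1a2* together took 69.3% to 72.7% in the mutants and 61.3% to 75.0% in WT. Each WT mouse lay outside the mutant range of the *Slc1a3* share, and each lay outside that of the *Slc1a6* share. The share of *Slc1a1* did not follow this, at 1.52 ± 0.183% in the mutants and 1.66 ± 0.167% in WT (SD, n = 5 mice each).

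**Figure D3:**
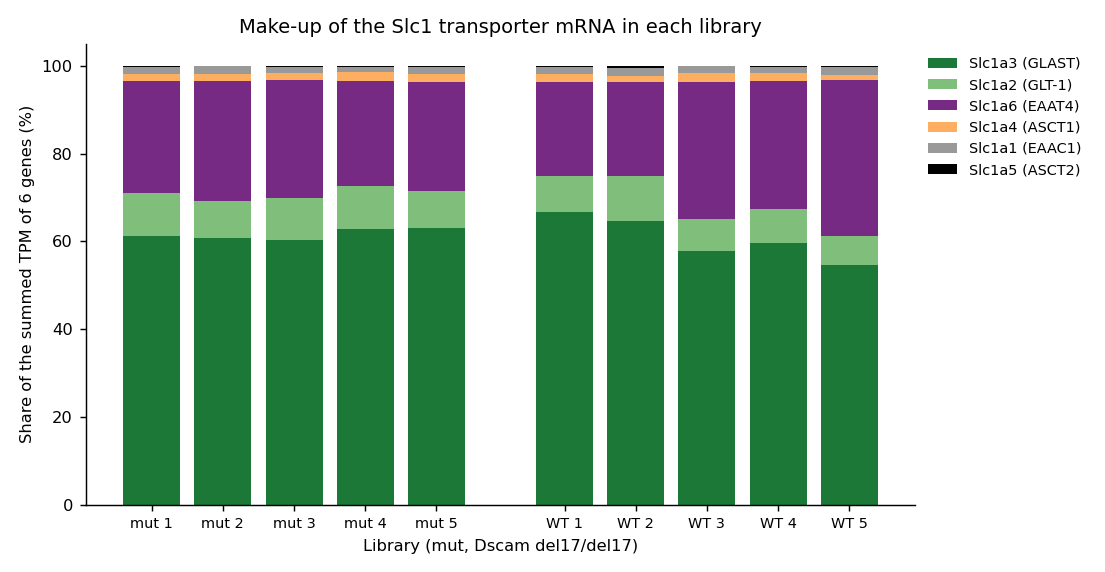
Share of each member in the summed TPM of the 6 members, in percent, stacked per library, with the 5 *Dscamdel17/del17* libraries (mut) on the left and the 5 WT libraries on the right. The purple segment of *Slc1a6* covers 23.8% to 27.2% in the mutants and 21.3% to 35.4% in WT, and is widest in WT replicate 5.

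The spread between mice differed by member. The coefficient of variation of *Slc1a3* was 4.47% in *Dscamdel17/del17* and 26.0% in WT, that of *Slc1a4* 5.52% in the mutants and 27.3% in WT, and that of *Slc1a2* 11.3% in the mutants and 33.6% in WT. On the log2 scale, the SD in WT was 6.16 times that in the mutants for *Slc1a3*, 5.76 times for *Slc1a4*, 3.04 times for *Slc1a2*, 1.51 times for *Slc1a5*, 1.24 times for *Slc1a1* and 0.670 times for *Slc1a6*. A larger spread in WT was common, since 68.9% of all genes tested had it, and the ratio of the WT SD to the mutant SD had a median of 1.38 over these genes. *Slc1a6* was thus the only member whose spread was larger in the mutants.

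The deviation of each library from the mean of all 10 shows which mice carry this spread. In WT replicate 5 the log2 deviation was -0.86 for both *Slc1a2* and *Slc1a4*, -0.63 for *Slc1a3*, -0.29 for *Slc1a1*, -0.24 for *Slc1a5* and -0.051 for *Slc1a6*, beside a median over all genes of -0.35. In WT replicate 3, *Slc1a2* deviated by -0.40 and *Slc1a3* by -0.25, beside a median of -0.080, while *Slc1a4* deviated by 0.023. In WT replicates 1 and 2, *Slc1a3* deviated by 0.33 and 0.27, beside medians of 0.22 and 0.096. WT replicate 5 was thus low in the glial transporters and *Slc1a4* beyond the general shift of its library, and *Slc1a6* did not follow that shift.

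**Figure D4:**
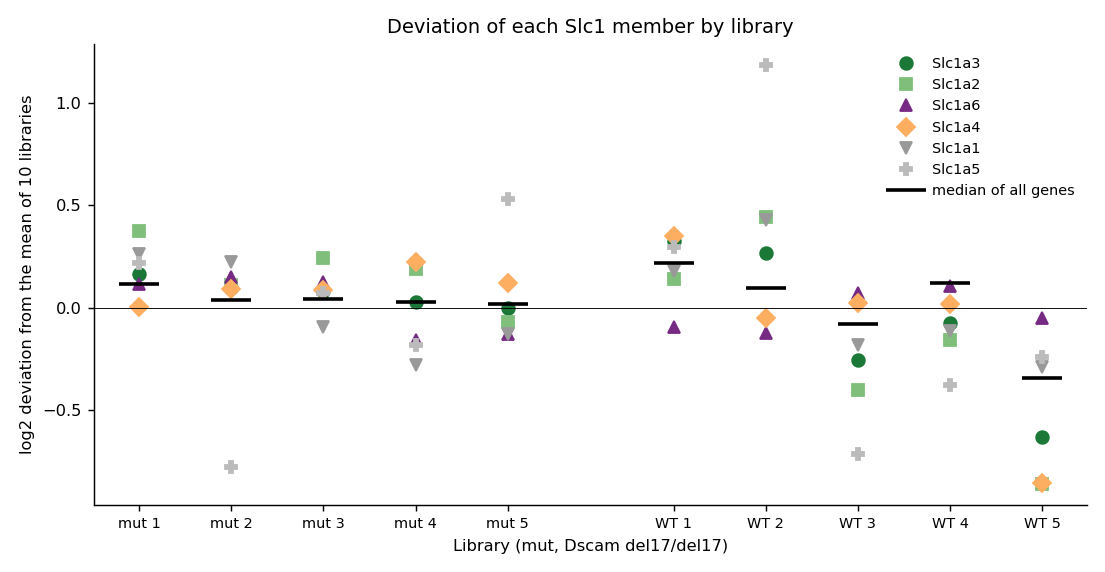
Log2 deviation of each member from its mean over the 10 libraries, 1 column per library with *Dscamdel17/del17* (mut) on the left and WT on the right, and a black bar for the median deviation of all genes tested. In WT replicate 5 the points of *Slc1a2*, *Slc1a4* and *Slc1a3* lie at -0.86, -0.86 and -0.63, under the median of -0.35, and *Slc1a6* lies at -0.051.

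Ratios within a library cancel its scaling and set each transporter against other genes of its cells. The log2 ratio of *Slc1a6* to *Slc1a3* was -1.40 to -1.16 in the mutants, against -1.63, -1.60, -0.89, -1.03 and -0.63 in WT replicates 1 to 5. No WT mouse shared the mutant range of this ratio, which contains *Slc1a3* and so is not separate from the arrangement of *Slc1a3* described above. The means of the ratio of *Slc1a6* to *Slc1a3* were -1.26 in *Dscamdel17/del17* and -1.16 in WT, and their difference of -0.11 did not pass an exact two-sided permutation test (p = 0.603, 0.603 after Benjamini-Hochberg adjustment over the 5 ratios compared). It turned to 0.025 without WT replicate 5 and to 0.16 with WT replicate 3 left out as well. The log2 ratio of *Slc1a2* to *Slc1a3* was -2.62, -2.82, -2.66, -2.67 and -2.90 in mutant replicates 1 to 5, against -3.01, -2.65, -2.98, -2.91 and -3.06 in WT replicates 1 to 5. *Slc1a2* was higher relative to *Slc1a3* in the mutants by 0.19 on average, with WT replicate 2 among the mutant values (exact two-sided permutation p = 0.0873, adjusted 0.185).

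The glial transporters were also set against the mean log2 level of 14 Bergmann glia and astrocyte markers. For *Slc1a3* this log2 ratio was 2.24, 2.29, 2.19, 2.22 and 2.08 in the mutants, against 2.201, 2.27, 1.78, 1.85 and 1.66 in WT. For *Slc1a2* it was -0.38, -0.53, -0.47, -0.45 and -0.82 in the mutants, against -0.81, -0.38, -1.19, -1.06 and -1.40 in WT. In both cases WT replicates 3, 4 and 5 were below all mutants and WT replicates 1 and 2 among them. The differences of 0.25 for *Slc1a3* and 0.44 for *Slc1a2* did not pass (exact two-sided permutation p = 0.111 and 0.0794, both 0.185 after adjustment), and *Slc1a6* over 13 Purkinje cell markers differed by -0.12 (p = 0.310, adjusted 0.387). Without WT replicate 2 the unadjusted p was 0.0159 for *Slc1a2* over *Slc1a3*, and 0.0238 for *Slc1a3* and for *Slc1a2* over the glial markers (exact two-sided permutation). With WT replicates 3 and 5 left out, the differences were 0.13 for *Slc1a2* over *Slc1a3* (p = 0.286), 0.096 for *Slc1a3* over the glial markers (p = 0.482) and 0.22 for *Slc1a2* over them (p = 0.339, each by exact two-sided permutation).

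**Figure D5:**
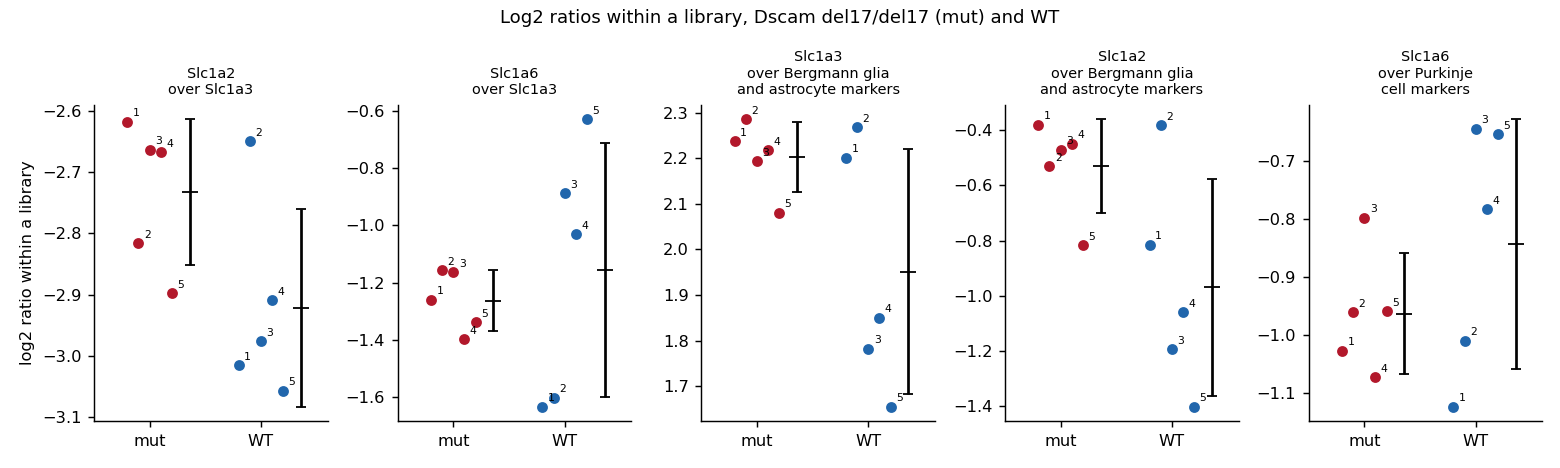
Log2 ratios within each library, 1 panel per ratio with its own axis, 1 point per mouse numbered by replicate, *Dscamdel17/del17* (mut) in red on the left and WT in blue on the right, with bars for the mean and SD (n = 5 mice each). In the panel of *Slc1a3* over the glial markers, WT replicates 3, 4 and 5 lie at 1.78, 1.85 and 1.66, under the lowest mutant value of 2.08.

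The markers themselves give the setting of these ratios. Of the 14 Bergmann glia and astrocyte markers, 4 had positive and 10 negative log2 fold changes (median -0.04), and their summed level was 2093 to 2294 TPM in the mutants and 2206 to 2681 TPM in WT. Of 13 Purkinje cell markers tested, 11 were above 0 and 2 below (median 0.16), with sums of 7647 to 9205 TPM in the mutants and 7271 to 8707 TPM in WT. Oligodendrocyte markers, of cells that lie beside these in whole tissue, were above 0 for 12 of 14 (median 0.35), beside 56.0% of all genes, and had sums of 7566 to 8922 TPM in the mutants and 5938 to 8612 TPM in WT. By limma, 0 genes of these lists passed the adjusted threshold, and an unadjusted p under 0.05 was reached by 2 of the 14 glial markers, both lower in the mutants (*Hopx* -0.48 and *Ndrg2* -0.43, log2 fold changes), and by 4 of the 14 oligodendrocyte markers, all higher (*Mobp* 0.50, *Mog* 0.56, *Cldn11* 0.29 and *Mal* 0.58). Over all genes, 3.26% were lower and 2.29% higher at this level. *Mobp* and *Mog* were higher without overlap between the genotypes, beside 0.419% of all genes. The values of *Mog* nearly met, at 139.785 TPM in the lowest mutant and 139.7 TPM in the highest WT mouse. Of 10 granule cell markers, 2 were above 0, and 4 were lower at an unadjusted p under 0.05 (*Neurod1* -0.25, *Neurod2* -0.28, *Chn2* -0.34 and *Fat2* -0.36), of which *Neurod1* and *Fat2* did not overlap between the genotypes, beside 0.798% of all genes in this direction. These 10 markers are named after their values were seen. The part of cell composition in the transporter ratios was not tested.

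Across the 10 libraries, *Slc1a2* and *Slc1a3* varied together. After removing the genotype means, Pearson's r of log2 levels was 0.944 for *Slc1a2* and *Slc1a3*, 0.799 for *Slc1a3* and *Slc1a4*, 0.777 for *Slc1a1* and *Slc1a2* and 0.768 for *Slc1a1* and *Slc1a3*. *Slc1a6* had r between -0.570 and 0.122 with the other 5 members. These values describe 10 libraries, within each of which the genes share the scaling and the quality of the RNA. The SD of log2 levels was 0.064 in the mutants and 0.395 in WT for *Slc1a3*. For *Slc1a2* it was 0.165 in the mutants and 0.502 in WT. The correlation of *Slc1a2* and *Slc1a3* thus rests mostly on the WT mice.

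By the same measure, the genes most like *Slc1a3* among 10165 protein-coding genes of at least 5 TPM were *Cstf3* (0.994), *Krt222* (0.994) and *Pcdha11* (0.993), and 1068 genes exceeded 0.9. For *Slc1a2* they were *Cd47* (0.991), *Atp13a3* (0.987) and *Zyg11b* (0.983), with 685 genes over 0.9. For *Slc1a4* they were *Magohb* (0.984), *Ppia* (0.979) and *Sae1* (0.977), with 387 genes. By log2 deviation from the mean of 10 libraries, *Slc1a3* (-0.63), *Slc1a2* and *Slc1a4* (both -0.86) deviated most in WT replicate 5. Their pattern, carried mostly by the WT mice, was shared by many transcripts, though the number for a typical gene was not determined. Fewer followed *Slc1a1*, with 17 genes over 0.9 (*Zfp658* 0.958, *Kctd6* 0.946 and *Tmem260* 0.944 leading), *Slc1a5*, with 9 (*Grin2a* 0.941, *Fkbp5* 0.933 and *Smc5* 0.921), and *Slc1a6*, with 3 (*Doc2b* 0.935 and *Nudt14* 0.932 among them).

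The genes around the transporters were examined in 5 lists. Among 13 genes of proteins linked to the transporters at the membrane or in their turnover, DSCAM included, 8 had positive and 5 negative log2 fold changes (median 0.05, close to that of all genes). By limma 0 passed the adjusted threshold, while 2 were lower at an unadjusted p under 0.05, as were 3.26% of all genes. These were *Dscam* and *Slc9a3r1*, which encodes the PDZ scaffold NHERF1, a binding partner of GLAST. *Slc9a3r1* averaged 74.7 ± 8.92 TPM in *Dscamdel17/del17* and 91.6 ± 8.44 TPM in WT (SD, n = 5 mice each, log2 fold change -0.30, limma unadjusted p = 0.0211, adjusted p = 0.779, exact two-sided permutation p = 0.0238). With WT replicates 3 and 5 left out its unadjusted limma p was 0.0522.

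Uptake is driven by the sodium and potassium gradients, which the sodium pump maintains. Of 6 genes of this list, 3 were above 0 and 3 below (median 0.0087), with 0 past the adjusted threshold and 0 at an unadjusted limma p under 0.05. The pump's beta subunit *Atp1b1* averaged 859 ± 57.5 TPM in the mutants and 771 ± 136 TPM in WT (SD, n = 5 mice each, log2 fold change 0.17). The difference did not pass the test (limma adjusted p = 0.779) and turned to -0.0031 once WT replicates 3 and 5, the lowest WT values of *Atp1b1*, were left out.

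Glutamate taken up by glia is converted to glutamine and returned to neurons. Of 14 genes of this cycle, 13 were tested, all but *Slc17a8*, and 9 were above 0 and 4 below (median 0.10), with 0 past the adjusted threshold and 2 higher at an unadjusted limma p under 0.05, as were 2.29% of all genes. *Glul*, the glutamine synthetase of astrocytes, was measured at 575, 417, 428, 466 and 447 TPM in mutant replicates 1 to 5, against 381, 445, 256, 316 and 318 TPM in WT replicates 1 to 5. Only WT replicate 2 lay among the mutant values (466 ± 63.2 TPM in the mutants and 343 ± 72.3 TPM in WT, SD, n = 5 mice each, log2 fold change 0.46, limma unadjusted p = 0.00862, adjusted p = 0.779, exact two-sided permutation p = 0.0238). With WT replicates 3 and 5 left out the log2 fold change of *Glul* was 0.30 and the unadjusted limma p 0.0518, and with mitochondrial mRNA as a covariate the log2 fold change was 0.31. The other was *Slc17a6*, the vesicular transporter VGLUT2, at 8.87 ± 3.84 TPM in the mutants and 3.45 ± 2.92 TPM in WT (log2 fold change 1.52, adjusted p = 0.779 from limma). It is also 1 of the 10 brainstem markers and makes up most of their sum, which was 5.48 to 16.1 TPM in the mutants and 2.14 to 9.45 TPM in WT. Of the other brainstem markers, *Dbh* averaged 1.11 ± 0.333 TPM in the mutants and 0.194 ± 0.166 TPM in WT (log2 fold change 2.19, adjusted p = 0.779 from limma). It was at 0.685 TPM or more in the mutants and at most 0.458 TPM in WT. *Dbh* thus passed the filter of 0.5 TPM through the mutants alone, which fixes that the genotypes do not overlap, so no conclusion is drawn from it. *Tph2* averaged 0.769 ± 0.388 TPM in the mutants and 0.387 ± 0.330 TPM in WT (log2 fold change 1.07). The part of brainstem tissue in the level of *Slc17a6* was not tested. *Slc17a7*, the VGLUT1 of granule cells, was the most abundant at 545 ± 35.7 TPM in the mutants and 607 ± 37.8 TPM in WT (log2 fold change -0.16).

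The exchangers belong with the serine and neutral amino acid genes. Of 10 such genes, 5 were above 0 and 5 below (median 0.03), with 0 past the adjusted threshold and 0 at an unadjusted limma p under 0.05. *Slc7a10*, the exchanger Asc-1, averaged 61.6 ± 4.26 TPM in the mutants and 72.9 ± 10.3 TPM in WT (log2 fold change -0.23, limma unadjusted p = 0.0619, adjusted p = 0.779, exact two-sided permutation p = 0.0476). Over 22 alternatives its log2 fold change was -0.32 to -0.17 and its unadjusted limma p 0.00715 to 0.161. *Slc3a2*, the heavy chain of several exchangers, averaged 129 ± 20.6 TPM in the mutants and 158 ± 32.0 TPM in WT (-0.28, limma unadjusted p = 0.0928, exact two-sided permutation p = 0.127). Glutathione synthesis needs cysteine, which EAAC1 takes up. Of 4 genes of its synthesis and reduction, 2 were above 0 and 2 below (median 0.14), again with 0 past the adjusted threshold and 0 at an unadjusted limma p under 0.05. *Gclm* averaged 25.4 ± 3.07 TPM in the mutants and 20.05 ± 4.75 TPM in WT (0.37, and 0.23 without WT replicate 5), *Gclc* 23.6 ± 4.39 TPM in the mutants and 19.1 ± 9.47 TPM in WT (0.48, but 0.096 without WT replicate 5 and -0.093 with WT replicates 3 and 5 left out), and *Gsr*, the reductase, 22.4 ± 2.08 TPM in the mutants and 23.7 ± 3.36 TPM in WT (-0.08).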

How the data were processed

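RNA from 10 cerebella was sequenced by the authors on the Illumina NovaSeq platform after directional library preparation. Per the study's methods, reads were trimmed with Trimmomatic (version 0.36), aligned to GRCm38 with HISAT2 (version 2.2.0), and TPM per Ensembl gene were computed with StringTie (version 1.3.6). The authors deposited these TPM values, which are used here as given. The annotation release and strand setting are not given in the sources used here, and a gene listed at 0 can be a failed estimate. Read counts and the count-based comparison named in the methods were not used here. Depth is unknown, so no counting intervals are given.

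Symbols and positions are from GENCODE M21, which lacked 191 of 53447 identifiers. Genes of at least 0.5 TPM in at least 5 libraries (17168, of which 13538 protein-coding) were compared as log2(TPM + 0.1), which draws fold changes of low genes toward 0, with limma (version 3.58.1, R version 4.3.3), a variance trend and no covariates. Adjusted p-values are Benjamini-Hochberg values over these 17168 genes, called at 0.05. Single values were compared by exact permutation over the 252 divisions into 5 and 5. The limma intervals and the permutation tests take the spread to be equal in both genotypes, whereas 68.9% of all genes tested had a larger SD in WT. Figures were drawn in Python (version 3.11.15). The scripts were tested on simulated data. For limma these had independent errors and equal spread in both genotypes, so that test does not cover the unequal spread seen here. The members and lists were chosen with earlier results of these data known. Named are the members, *Slc1a7*, *Dscam*, the 2 genes of smallest p and the most abundant one of each pathway list, and the 3 genes most like each member, of which some are not reported here. Overlapping neighbours, *Xist*, cell type markers and the gene called without 1 library were named after their values were seen. Alternatives were other pseudocounts, filters and scalings, covariates, array weights, protein-coding genes alone, a replicate block and leaving out libraries.

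Lists of other cells were described in the same way. Log2 fold changes were above 0 for 56.0% of all genes, 2 of 10 granule cell markers (median -0.13), 6 of 7 oligodendrocyte precursor markers (0.17), 5 of 9 endothelial markers (0.16), 4 of 8 microglial markers (0.02), 3 of 5 choroid plexus markers (0.06), all 3 brainstem markers tested (1.52) and all 13 mitochondrial mRNAs (0.41). The other 7 of the 10 brainstem markers were too low to test. Of the 3 tested, *Dbh* passed the filter through the mutants alone, so their count is not comparable with the share of all genes.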

Additional observations from a re-analysis of the deposited data

How the results depend on the processing

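Over 22 alternatives, 0 of the 6 members and 0 genes of the 5 lists passed the adjusted threshold. Over all genes, 0 to 1 passed when each library was left out in turn, the 1 being *1500004A13Rik* without *Dscamdel17/del17* replicate 4 (limma adjusted p = 0.00297). The genes at an unadjusted p under 0.05, 953 in all, numbered 704 to 1634 in these fits, the highest being 1586 with WT replicate 1 left out and 1634 with WT replicate 2 left out. The log2 fold change of *Slc1a6* was above 0 in all 22 (0.0066 to 0.085). Those of the others were -0.081 to 0.098 for *Slc1a1*, 0.16 to 0.49 for *Slc1a2*, 0.0068 to 0.25 for *Slc1a3*, 0.018 to 0.32 for *Slc1a4* and -0.24 to 0.23 for *Slc1a5* when each library was left out. *Slc1a5* was not tested under the filter of 1 TPM in all 10 libraries.

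Signs turned with mitochondrial mRNA as a covariate for *Slc1a2* (-0.011), *Slc1a3* (-0.13), *Slc1a4* (-0.072), *Atp1b1* (-0.0086) and *Gclc* (-0.12). Without WT replicates 3 and 5 they turned for *Slc1a3* (-0.10), *Slc1a4* (-0.0032), *Atp1b1* (-0.0031) and *Gclc* (-0.093), and the log2 ratios of *Slc1a6* to *Slc1a3* (0.16) and to Purkinje cell markers (0.0086) turned too. WT replicates 3 and 5 had the lowest WT values of *Slc1a2*, *Slc1a3*, *Atp1b1* and *Gclc*, so leaving them out could only lower these estimates. They also had the highest WT values of both ratios, whose differences could only rise. With these libraries left out, *Gclm* was at 0.18, *Gsr* at -0.20 and *Slc3a2* at -0.17, and with the covariate *Gclm* was at 0.11 and *Gsr* at -0.23. The cause was not tested. When each library was left out, the differences in log2 ratio were 0.16 to 0.26 for *Slc1a2* over *Slc1a3*, -0.23 to 0.025 for *Slc1a6* over *Slc1a3*, 0.18 to 0.33 for *Slc1a3* and 0.33 to 0.59 for *Slc1a2* over the glial markers. As shares of the 5 members other than *Slc1a3*, *Slc1a1* differed by -0.321 and *Slc1a2* by 3.12 percentage points, and the share of *Slc1a3* differed by -2.04 without WT replicates 3 and 5. With the mitochondrial covariate and without WT replicates 3 and 5, the list medians were -0.10 and -0.11 for the sodium and potassium gradient, -0.063 and -0.049 for the glutamine cycle and -0.16 and -0.15 for glutathione.

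The labels number the mice of each genotype 1 to 5, but the correlation of deviations between mice of the same number was 0.0079 to 0.098, and only 2 of 5 mice correlated best with their own number. With the number as a block, the log2 fold change of *Slc1a3* was 0.15 and that of *Slc1a2* 0.34, no member passed, and 1094 genes had an unadjusted p under 0.05. The ratio of *Slc1a3* to the glial markers had an exact sign-flip permutation p of 0.0625 under this pairing, the smallest for 5 pairs. By the same test p was 0.188 for *Slc1a2* over *Slc1a3* and 0.75 for *Slc1a6* over *Slc1a3*.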

Other observations

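Among the Bergmann glia and astrocyte markers, *Hopx* was lower in the mutants at an unadjusted p, at 74.8, 92.4, 105, 97.1 and 104 TPM in *Dscamdel17/del17* replicates 1 to 5, against 140.2, 104, 135, 138 and 142 TPM in WT replicates 1 to 5 (log2 fold change -0.48, adjusted p = 0.779 from limma). Only WT replicate 2 lay among the mutant values, and WT replicate 5, lowest of all libraries in *Slc1a3*, was highest in *Hopx*. The WT values of *Hopx*, where replicate 2 stood apart at 104 TPM from 135 to 142 TPM in the others, were not among the values tested for outliers. Across the 58 groups of 5 values that were tested (levels, shares and ratios), no single mouse stood apart from its group by Dixon's test. The critical value was 0.71, and 2.9 outliers would be expected at a rate of 1 in 20.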
